A study of Homo sapiens with 8 samples.

Results

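The RNAs bound by QKI7 in HepG2 cells that had received a guide against METTL1 (sgMETTL1) were described from 2 lists of peaks, and all peaks of both lists were used: 10095 in replicate 1 and 9388 in replicate 2, 19483 of the 42083 peaks of the series. HepG2 is a human liver cancer line. The cells used here expressed Cas9, had been infected with a lentivirus carrying QKI7 with a 3 x Flag tag, and were labelled METTL1 KO. Cells positive for GFP were kept, cross-linked with UV, lysed and sonicated, and the RNA bound to QKI7 was pulled down through its Flag tag. Ribosomal RNA was depleted, and the kit kept the strand. Each list came from 1 immunoprecipitated (IP) sample set against its own input, so 4 of the 8 samples stand behind the 2 lists. The control cells of the series, which received the guide sgNS, carried the same Cas9 and the same QKI7 transgene. The bound protein was therefore a tagged, overexpressed QKI7 in every group, and no label says whether the cells were a clone or a pool. These samples were bulk RNA, in which fewer cells with a transcript and less of it per cell cannot be told apart. The labels do not say whether the replicates came from separate cultures.

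QKI is an RNA-binding protein of the STAR family, which bind RNA through a KH domain. Its preferred element is ACUAAC or ACUAAU, with a UAA core nearby, and it acts on splicing, on circular RNA formation and on the stability and translation of mRNAs. QKI7 is the isoform with its own C-terminal end that is found mainly in the cytoplasm. METTL1 works with WDR4 to place 7-methylguanosine on tRNA, and the same mark has been described inside mRNAs. A peak here is a stretch of exon blocks of a named gene in which IP reads exceeded input reads by the authors' peak caller. The listed strand is that of the named gene, and it need not be the strand of the reads: although the library kit was a stranded one, 174 peaks of replicate 1 (1.72%) and 157 of replicate 2 (1.67%) overlapped a peak listed on the other strand. Of 50 and 49 such pairs that shared at least 50% of both peaks, 35 and 37 had folds within 1.1 times of each other. Its fold is the authors' ratio of IP over input, and its −log10 p is the authors' measure of how firmly it was called, which grows with the number of reads as well as with the fold.

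A few bound stretches could be shown in sequence, because a RefSeq promoter window (GRCh38, 300 bases around the start of a neighbouring or alternative transcript) happened to lie over a peak. Such windows covered 68 separate pieces of replicate 1 peaks (6771 bases, 0.183% of all peak bases) and 60 pieces of replicate 2 peaks (5634 bases, 0.157%). The letters ACTAAC and ACTAAT were searched in these pieces on the strand of the named gene. They occurred 4 times in replicate 1 and 5 times in replicate 2, which is 0.591 and 0.887 per 1000 bases. Of the pieces, which differ in length from the windows, 5.88% and 8.33% held them. Over all 35116 windows of the table the same letters occurred 0.194 times per 1000 bases on the given strand and 0.181 times on the other, and 5.50% and 5.18% of windows held them. The pieces held 42.5 and 40.5% A and T and all windows 42.5%. The sites found are shown 5′ to 3′ as 30 bases of the strand of the named gene, in the letters of the genome, with the element in capitals, since they are the places where the bound stretch can be read. They lie at chr2:200478155-200478184 (plus strand, SPATS2L), chr19:46719880-46719909 (minus strand, STRN4), chr4:183320233-183320262 (plus strand, WWC2), chr7:64991018-64991047 (minus strand, ERV3-1 and its neighbour ZNF117) and chr17:69244857-69244886 (minus strand, ABCA5).
SPATS2L: ttaatcatttttACTAATtctaataatcag
STRN4: tgctttccagacACTAACcaaggcttccag
WWC2: agctttagccaaACTAACtcctgcccttcg
ERV3-1: gactaccacacgACTAATggccctaactaa
ABCA5: ttattttatataACTAACtataatatgaca
Of these 5 peaks, that of SPATS2L was the most firmly called. It was listed at 20.5-fold in replicate 1 and 20.9-fold in replicate 2, with a −log10 p of 1830 and 2030, which placed it 37th and 36th in its list. STRN4 was listed at 5.33-fold and 12.5-fold, ERV3-1 at 2.91-fold and 11.6-fold and WWC2 at 5.66-fold and 4.32-fold. The −log10 p of WWC2 was low, at 3.81 and 3.29. The WWC2 place was also listed under CLDN22, on the other strand, at the same folds, so which strand was bound is unknown there. The element of ABCA5 lay inside its replicate 2 peak (25-fold, −log10 p of 4.33). Its replicate 1 peak, at 24.4-fold over 61 bases, did not reach the element. These pieces are too few to describe what the peaks hold in sequence, and a match to the letters is not a measurement of contact with QKI7.

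The strongest site with sgMETTL1 was on IGF2, which encodes a fetal growth factor. It ranked first by fold and by p in both lists, at 719-fold and 768-fold, with a −log10 p of 781000 and 949000. This site joined 4 exon blocks with 4546 bases in both lists (chr11:2129112-2147687, minus strand) and had the same edges in both. MEIOC, a meiosis gene, followed at 515-fold and 752-fold over 541 and 631 bases. ERO1A, which oxidises thiols of folding secretory proteins, stood at 571-fold and 442-fold over 3355 and 3505 bases (chr14:52640005-52643359 in replicate 1). HIPK2, a nuclear kinase, was listed at 561-fold and 352-fold over 2910 bases that ended at the annotated 3′ end of the gene in both lists. TTF2, a transcription termination factor, stood at 323-fold and 494-fold. DVL3, a Dishevelled scaffold of Wnt signalling, stood at 360-fold and 250-fold over 9 exon blocks, and SULT1C4, a sulfotransferase, at 250-fold and 328-fold. Neither replicate was the higher throughout these 7 sites, with 4 higher in replicate 2 and 3 in replicate 1.

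Of the 15 sites with the best mean rank by fold, 7 others described here lay between 121-fold and 500-fold in both lists. GNA13, a G-protein subunit, was listed at 168-fold and 186-fold and the activin receptor gene ACVR2A at 174-fold and 161-fold. LYVE1, a hyaluronan receptor, stood at 183-fold and 155-fold and the cytokine gene TNFSF15 at 152-fold and 197-fold. The zinc finger gene ZNF43 was listed at 204-fold and 130-fold and the deubiquitinase gene OTUD6B at 227-fold and 121-fold. RIPPLY3, a transcriptional corepressor, differed most among the 14 sites described, at 146-fold and 500-fold. In all, 29 sites had a fold of 100 or more in both lists, and 1394 of 6800 (20.5%) had a fold of 10 or more in both.

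**Figure D1:**
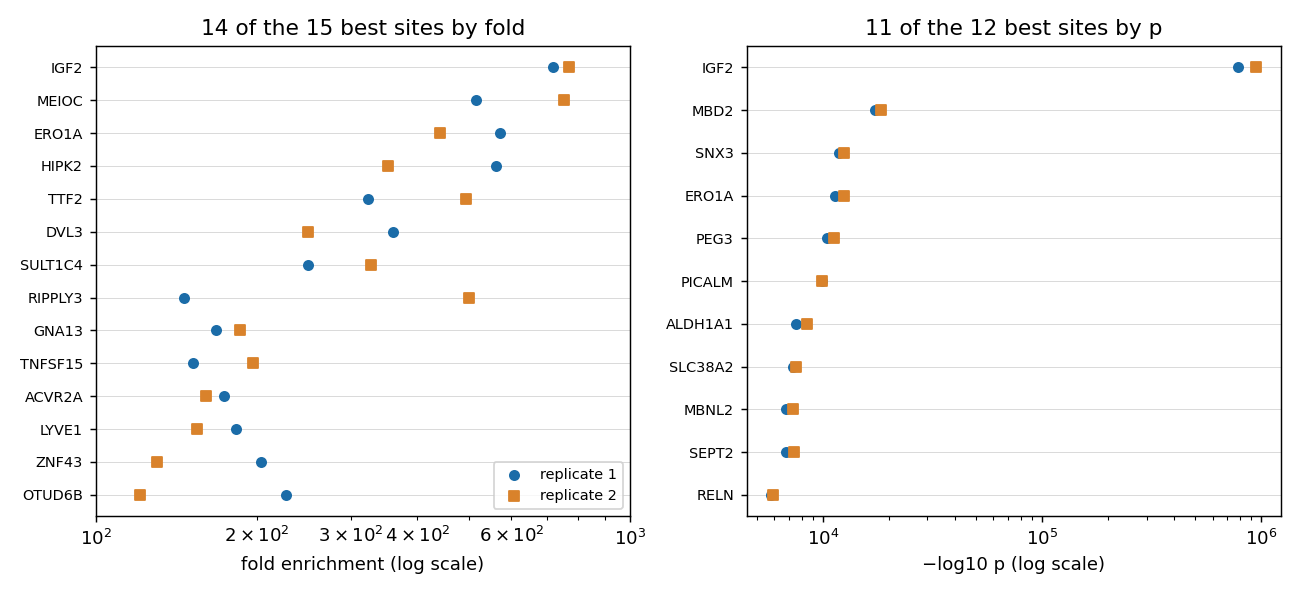
Left, the authors' fold (IP over input, log axis) in replicate 1 (circles) and replicate 2 (squares) for 14 of the 15 sites with the best mean rank by fold; right, −log10 p (log axis) for 11 of the 12 sites with the best mean rank by p. IGF2 leads both panels. The panels hold sites chosen in different ways, so the spread by fold and by p is not compared. By fold, RIPPLY3 stands at 146 and 500.

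Ranked by p, which favours sites with many reads, the sites after IGF2 were other genes for the most part. MBD2, which encodes a reader of methylated DNA, had a −log10 p of 17300 and 18400 at 157-fold and 127-fold. SNX3, a sorting nexin of endosomes, had 11800 and 12500 at 118-fold and 102-fold, and ERO1A had 11400 and 12500. The imprinted zinc finger gene PEG3 followed at 10500 and 11200 and the clathrin adaptor gene PICALM at 9910 and 9920. The other 5 were ALDH1A1, a retinaldehyde dehydrogenase (7540 and 8450), the amino acid transporter gene SLC38A2 (7330 and 7560), the splicing regulator gene MBNL2 (6790 and 7330), the septin gene listed as SEPT2 (6760 and 7390) and RELN, an extracellular matrix protein (5790 and 5940). Folds of these sites ranged from 12.9 in RELN to 768 in IGF2. RELN, PEG3, ALDH1A1, SLC38A2 and SEPT2 were thus among the firmest calls at folds below 100, between 12.9 and 77.3.

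Some sites of many exon blocks reached near both ends of their gene. Of 282 sites with 3 or more exon blocks in both lists, 13 reached within 1000 bases of both annotated ends of their gene, a description made after their values had been seen. ZNF213, a zinc finger gene, had a site of 6 blocks and 3194 bases in both lists at 132-fold and 144-fold. SNX3 had a site of 3 blocks, the chemokine gene CXCL16 had 1 of 6 (72.3-fold and 74.1-fold) and the Dishevelled gene DVL1 had 1 of 15 blocks and 2924 bases (51-fold and 35-fold). DAD1, a subunit of the oligosaccharyltransferase, had a site of 3 blocks at 32.8-fold and 29.3-fold. TNFRSF6B met the same rule with a peak of 268 bases in replicate 1, which left 472 bases at the start and 400 at the end, so the rule does not show a whole transcript to be covered. The 13 sites had median folds of 32.8 and 29.3.

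Most peaks recurred between the replicates, and the peaks that did not were narrow and weakly called. In replicate 1, 7407 of 10095 peaks (73.4%, 95% exact binomial interval 72.5 to 74.2) shared at least 1 base with a replicate 2 peak on the same strand, counted over exon blocks. In replicate 2, 7312 of 9388 peaks (77.9%, 77.0 to 78.7) were met by replicate 1. By covered bases, 78.5% of replicate 1 lay in replicate 2 and 81.2% of replicate 2 in replicate 1. Met peaks had median widths of 329 bases in both lists and median −log10 p of 12.1 and 12.6. Peaks met by no peak of the other list had median widths of 121 bases in both lists, median −log10 p of 3.92 and 3.79, and none had a −log10 p above 25.1 in replicate 1 or 20.6 in replicate 2. The intervals cover counting error only.

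The share of peaks met rose from 32.4 and 35.6% in the lowest 10% of each list by −log10 p to 100% in the highest 20%. It rose in the same way with width, from 31.0 and 36.5% for peaks of at most 90 and 91 bases to 100% for those of at least 780 and 807 bases. With fold it rose less, from 61.5 and 68.3% in the lowest 10% to 85.0 and 85.8% in the highest 10%. Among peaks with a fold of 10 or more, the share met differed by width. At 150 bases or less it was 29.2% (24.5 to 34.2) and 26.8% (22.1 to 32.0). Above 150 bases it was 91.4% (90.1 to 92.6) and 91.7% (90.4 to 92.9). Any shared base makes a peak met, so a wide peak is met more readily by its size alone. Part of the rise with width can come from this rule. Peaks not met were both narrower and more weakly called, and the part of width apart from −log10 p was not tested.

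**Figure D2:**
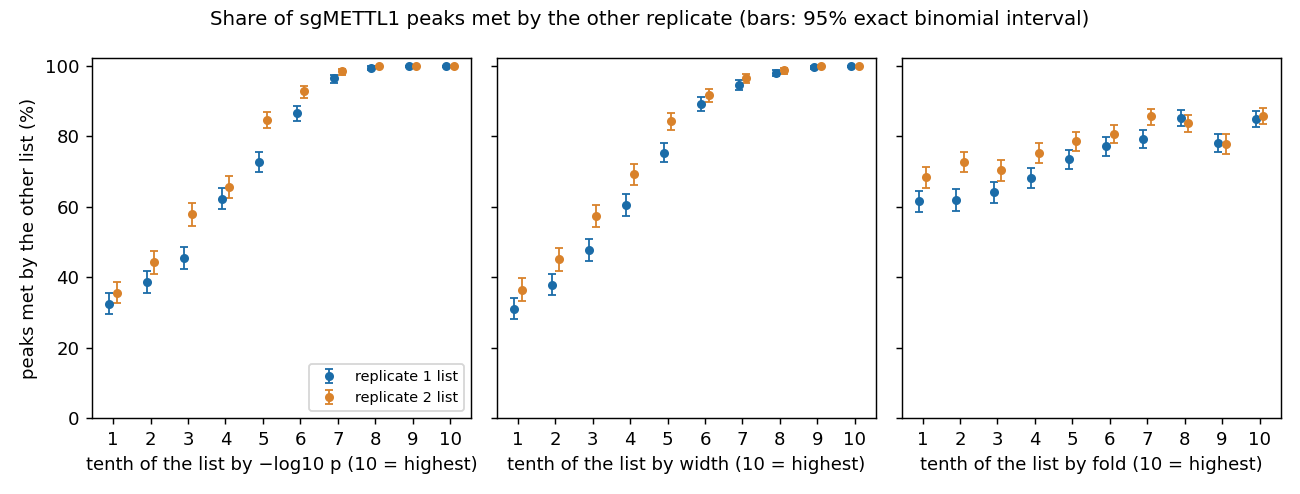
Share of peaks met by the other replicate (%), in bins of 10% of each list ordered by −log10 p, by width and by fold, for replicate 1 (blue) and replicate 2 (orange), with 95% exact binomial intervals as bars. The share reaches 100% in the highest bin by −log10 p and by width, and 85.0 and 85.8% in the highest bin by fold.

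Overlapping peaks of both lists formed 6800 sites, of which 6036 (88.8%) were 1 peak in each list. Across these 6800 sites the folds of the replicates had a Spearman correlation of 0.88 and the −log10 p one of 0.90, a description across sites that share the same cells, protein and peak caller. The median ratio of replicate 1 over replicate 2 was 1.06. Folds lay within 1.25 times of each other at 49.1% of sites, within 1.5 times at 71.8% and within 2 times at 88.3%. At the 806 sites with a −log10 p of at least 100 in both lists, 85.1% lay within 1.5 times, and at the 2383 sites with less than 10 in both, 70.8% did. The share of repeated edges depended on the tolerance. Of 5380 sites with 1 single-block peak in each list, the 5′ edge was the same at 24.8% and within 30 bases at 58.3%, and the 3′ edge was the same at 31.3% and within 30 bases at 62.1%. Within 60 bases the shares were 75.3% (5′) and 78.1% (3′).

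**Figure D3:**
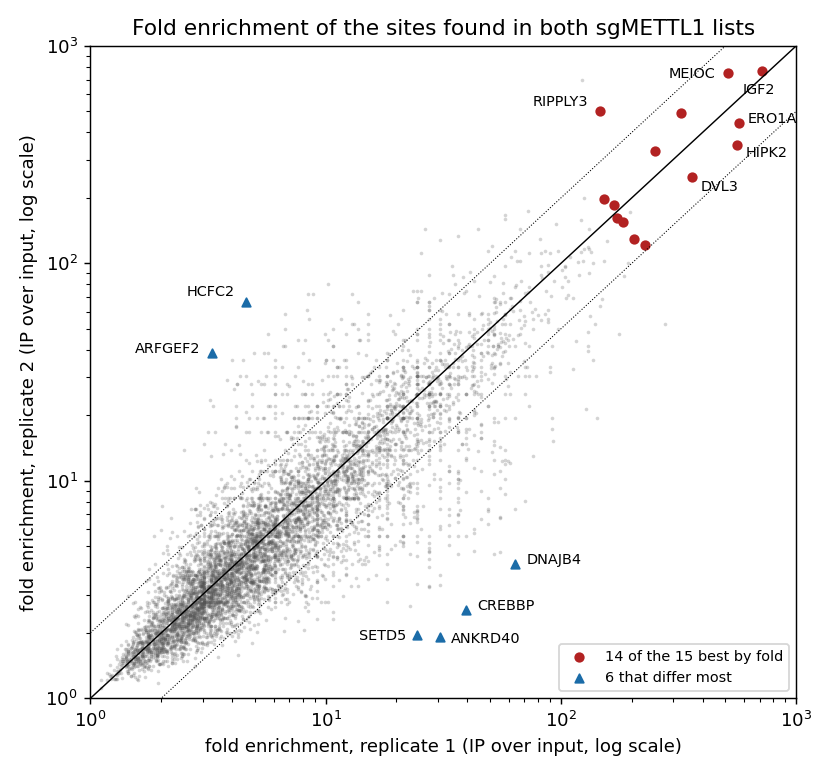
Fold in replicate 1 against fold in replicate 2 (both IP over input, log axes) for the 6800 sites of both sgMETTL1 lists (grey points); the solid line marks equal folds and the dotted lines 2 times either way. The best sites by fold (14 of the 15, red) reach 719 and 768 in IGF2, and the 6 sites that differ most (blue triangles) include CREBBP at 39.6 and 2.55.

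At the 6 sites whose folds differed most, the replicate with the higher fold also had the wider peak. CREBBP, a histone acetyltransferase, stood at 39.6-fold over 509 bases in replicate 1 and at 2.55-fold over 360 bases in replicate 2. DNAJB4, a chaperone cofactor, stood at 64-fold over 269 bases and 4.16-fold over 61 bases. ANKRD40 was listed at 30.5-fold and 1.91-fold and the chromatin gene SETD5 at 24.4-fold and 1.96-fold. The reverse held at HCFC2 (4.57-fold over 60 bases and 66.6-fold over 299 bases) and ARFGEF2, an exchange factor of vesicle transport (3.28-fold and 38.9-fold).

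The highest folds found in 1 list alone were lower than the best of the shared sites. In replicate 1 they were on MEIS3 (61-fold over 180 bases), LPAR1 (54.9-fold), NAAA and TNFSF15 (51.8-fold each), RETREG2 (48.8-fold) and CLASP2 (45.7-fold). In replicate 2 they were on RNF2 (55.5-fold over 270 bases), PPP2R2C (54.1-fold), CFAP418 (47.2-fold), DCLRE1B (44.4-fold), and CABYR and CSTF2T (41.6-fold each). MEIS3, LPAR1, NAAA, DCLRE1B and CSTF2T had no peak at all in the other list, and the other 7 genes had a peak elsewhere, such as RNF2 at 29-fold in replicate 1. All 6 folds of replicate 1 and 5 of the 6 of replicate 2 were, to the precision printed, a whole number of steps of 3.05 (replicate 1) or 2.78 (replicate 2), step sizes that describe each list best. Of folds below 100, 11.4 and 12% of those at met peaks were such multiples and 19.7 and 22.5% of those at peaks not met, against 0.760 and 0.953% over each whole list for a step 7% larger. No source states what the step is.

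QKI7 peaks lay towards the 3′ ends of genes. Of the 6780 sites inside the RefSeq span of their gene, 5157 (76.1%) had the middle of their exon bases in the last 10% of the genomic span, 48 (0.708%) in the first 10% and 23.2% between. The 3′ edge lay within 1000 bases of the annotated end of the gene at 44.9% of sites and within 100 bases at 18.9%, with a median distance of 1252 bases. Sites of the last 10% had median folds of 5.33 and 5.06, sites between 4.38 and 4.20, and the 48 sites of the first 10% 4.11 and 3.61. Sites with more than 1 exon block in replicate 1 made up 5.80% of those in the last 10% and 22% of those between. Where a gene held 2 or more sites of any kind in its span, the 3′-most was also the strongest by fold in 965 of 1658 genes (58.2%). Many genes with several sites held only 2 (1005 genes), and no share to expect by chance was computed. The share of each gene's exon bases that lies in these bins was not computed, since no transcript models were used here, so untranslated and coding parts are not separated and the values give a position and no preference.

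**Figure D4:**
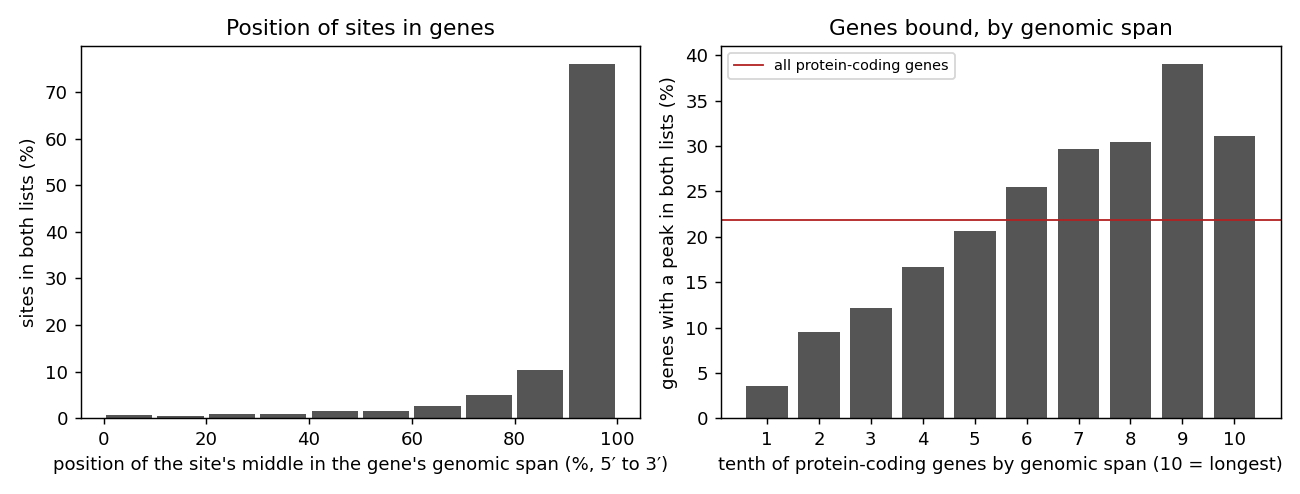
Left, share of sites (%) by the position of their middle in the genomic span of the gene, in bins of 10% from the 5′ to the 3′ end; 76.1% fall in the last bin. Right, share of protein-coding genes with a peak in both lists (%), in bins of 10% by genomic span; it runs from 3.54% in the shortest bin to 39.1% in the longest but 1, and the line marks 21.8% over all genes.

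Few peaks covered an annotated transcription start. Among those found in both lists were the phosphatase gene ACP1 (1.79-fold and 1.69-fold), the histamine receptor gene HRH2 (15.2-fold and 18-fold) and the kinase gene DMPK, whose site of 5 exon blocks stood at 13.9-fold and 17.8-fold. For MBD2 the start was inside the peak in replicate 2 and 31 bases outside it in replicate 1.

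Both lists named 4399 genes, replicate 1 named 688 more and replicate 2 579 more. By position, 4194 genes held a site of both lists: 2533 held 1 site, 1005 held 2 and 656 held 3 or more. The genes with the most sites were the epiplakin gene EPPK1 and the corepressor gene LCOR, with 11 each, followed by HIPK2 and the dynein adaptor gene HOOK3 with 10 each. In EPPK1 the sites were spread along the gene, with 2 of 11 in the last 10%, and ran from 1.61-fold to 51.8-fold in replicate 1 and from 1.89-fold to 50-fold in replicate 2. In HIPK2 the 3′-most site stood apart, since the other 9 lay between 1.38-fold and 16.4-fold in replicate 1 and between 1.45-fold and 12-fold in replicate 2. In HOOK3 all 10 sites lay in the last 10% of the span, at 2.88-fold to 31-fold and 2.60-fold to 35.7-fold. The other genes of the 10 with the most sites had 7 each: the APOB mRNA editing cofactor gene A1CF, AGFG1, the kinase anchor gene AKAP11, the BMP receptor gene BMPR2, CYP20A1 and EFCAB14. In BMPR2 all 7 lay in the last 10%, and the strongest (56.5-fold and 55.7-fold) was flanked by sites of 2.26-fold to 20.5-fold.

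Sites of 1 exon block in both lists made up 89.0% of the total (6050 of 6800). The sites with the most blocks were on the collagen genes COL27A1 (56 and 55 blocks, 7.25-fold and 14.8-fold) and COL7A1 (22 and 16 blocks, 24.4-fold and 19.4-fold) and on AGRN, which encodes the matrix proteoglycan agrin (25 and 33 blocks, 11.3-fold and 9.19-fold). DVL1 (15 blocks in both lists), the chloride channel gene TTYH3 (4 and 14 blocks, 22.2-fold and 21.1-fold) and WAC, an adaptor of histone ubiquitination (11 and 7 blocks, 10.5-fold and 9.93-fold), followed. Blocks were counted in the strongest peak of each list. Of these 6 sites, DVL1 alone was 1 peak in each list and had the same number in both. The other sites were split into more peaks in 1 or both lists, as AGRN was (6 and 2 peaks). Their block counts therefore do not compare whole sites.

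The transcript of QKI itself had 6 peaks in replicate 1 and 4 in replicate 2, which formed 2 shared sites on chromosome 6. The upstream site joined 8 exon blocks with 1410 bases in both lists (163415182 to 163571106 in replicate 1), at 5.57-fold and 4.92-fold with a −log10 p of 1570 and 1450. The downstream site joined 2 peaks of replicate 1 and 3 of replicate 2, and its strongest peak (163572604 to 163574401 in replicate 1) stood at 109-fold and 107-fold with a −log10 p of 293 and 277. The downstream site was thus the stronger by fold and the weaker by p in both lists. The transgene carries QKI7 coding sequence, and reads from it and from the native gene cannot be told apart at the upstream site. METTL1 and WDR4 had no peak in either list, which gives no check of the knockout.

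Of the 4399 genes of both lists, 4379 are protein-coding, which is 21.8% of the 20056 protein-coding genes of RefSeq. That share is the background for the gene groups below, and it includes genes that HepG2 cells may not transcribe. The lists and members were chosen with earlier results of these data known. Of all 1060 list members, 451 were in both lists. A share above 21.8% is thus not particular to 1 group. Of 15 mRNAs that QKI is known to regulate, 9 had a peak in both lists (60%). FOXO1, a transcription factor repressed by QKI in other cells, was listed at 30.3-fold and 27.9-fold, the cell cycle inhibitor gene CDKN1B at 31.2-fold and 26.7-fold, and the beta-catenin gene CTNNB1 at 24.9-fold and 26.2-fold. NUMB, a Notch regulator with a QKI-controlled exon, was listed at 36.6-fold and 10.9-fold. Median folds of the 9 genes were 16.3 and 14.5, against 7.42 and 6.75 over all protein-coding genes of both lists. CDH5, HNRNPA1, MAG and MYOCD had no peak in either list, and EGR2 had 1 in replicate 1 alone (24.4-fold). For the groups that follow, a gene's fold is that of its strongest peak in each list, and members with a peak in both lists are counted. A high fold can rest on a weakly called peak. The highest −log10 p of any peak was 7.47 and 5.95 in TGFB2 and 8.74 and 10 in BHLHE41. In MBNL2 it was 6790 and 7330.

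Groups of RNA-binding proteins differed in share and in fold. Of 30 proteins that act through 3′ untranslated regions, 22 (73.3%) were in both lists, with median folds of 13.4 and 12.4. The stem-cell regulators MSI1 (107-fold and 91.6-fold) and MSI2 (87.8-fold and 60.9-fold) and the polyadenylation element binder CPEB2 (54.9-fold and 66.6-fold) were among the highest, while PABPC1, the cytoplasmic poly(A)-binding protein, stood at 1.11-fold in both lists, the lowest fold of each. Of 27 splicing regulators of the STAR family and its partners, 14 were in both lists, among them MBNL2 (122-fold and 113-fold), RBM24 (101-fold and 93-fold) and HNRNPL (52.7-fold and 38.5-fold). The STAR paralogues KHDRBS1, KHDRBS2 and KHDRBS3 and the branch point protein SF1, which reads a related element, had no peak in both. SR proteins and core splicing factors had 13 of 24 members, but at low folds (medians 3.85 and 3.17), with SRSF10 the highest at 13.7-fold and 16.7-fold. The 13.7-fold peak of SRSF10 in replicate 1 had a −log10 p of 5.56, and its firmest peak there (19.4) stood at 3.97-fold.

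Machineries of mRNA control had between 43.3 and 58.3% of their members in both lists, except the aminoacyl-tRNA synthetases. Argonaute and microRNA genes had 8 of 16, with DICER1 at 21.8-fold and 21.6-fold and LIN28B, which blocks let-7 maturation, at 15.2-fold and 13-fold, while AGO1 to AGO4 were not in both. Deadenylation and decay had 16 of 32, with the decapping cofactor DCP1A at 23.7-fold and 18.5-fold and the deadenylase CNOT6 at 15.9-fold and 19.8-fold. Stress granule components had 14 of 24 at median folds of 4.93 and 3.11. FXR1 (48.8-fold and 50-fold) was the highest of them, and NUFIP2 (7.50-fold and 10.4-fold) held 7 sites. Writers, erasers and readers of RNA methylation had 13 of 30, with the m6A writer subunit ZC3H13 at 24.4-fold and 47.2-fold, RAMAC, an activator of cap methylation, at 42.7-fold and 21.1-fold, and the demethylase FTO at 19.6-fold and 21.7-fold. Translation factors had 15 of 30 at medians of 4.57 and 3.37, with EIF5B at 20.1-fold and 34.9-fold, and aminoacyl-tRNA synthetases 5 of 20 (25%), with NARS1 at 29.1-fold and 25-fold.

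The Wnt pathway had 23 of 34 (67.6%) with median folds of 11.3 and 9.85: besides DVL3 and DVL1, the ubiquitin ligase ZNRF3, which removes Frizzled receptors, was listed at 104-fold and 96.4-fold and the tankyrase TNKS2 at 55-fold and 64.7-fold. The TGF-beta, activin and BMP pathway had 19 of 28, with ACVR2A, the SMAD corepressor SKI (134-fold and 113-fold), BMPR2 and the ligand TGFB2 (42.7-fold and 33.3-fold). The Ras and MAP kinase cascade had 18 of 31, with the inhibitors SPRED2 (57.6-fold and 43.1-fold), NF1 (33.9-fold and 48.5-fold) and SPRED1 (41.7-fold and 37.8-fold). The Hippo pathway had 16 of 30, with the scaffold SAV1 at 53.3-fold and 40.3-fold and WWC2 at 31.7-fold and 21.1-fold. PI3K and mTOR signalling had 15 of 32, with SESN3 at 82.6-fold and 112-fold and the catalytic subunit PIK3CA at 54.2-fold and 41.6-fold. Receptor tyrosine kinases and their ligands had 6 of 32 (18.8%), near the background of 21.8%; these were the ligand genes IGF2, TGFA (32.5-fold and 58.3-fold) and VEGFA (9.46-fold and 6.75-fold) and the receptor genes IGF1R (15.9-fold and 18.8-fold), AXL and FGFR3. Apoptosis regulators had 16 of 30, with the caspase gene CASP8 (52.6-fold and 33.7-fold) and the inhibitors BIRC3 (48.8-fold and 30.5-fold) and XIAP (30.5-fold and 25-fold).

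Among nuclear regulators, SWI/SNF and CHD remodellers had 20 of 28 members in both lists (71.4%), with ARID2 at 37.3-fold and 48.4-fold over 5 sites and CHD6 at 19.2-fold and 27.2-fold. Histone methyltransferases had 13 of 27, with KMT2C at 81.9-fold and 54.7-fold and KMT2A at 13.3-fold and 15.3-fold. Acetyltransferases and corepressors had 13 of 25, with HDAC2 at 33.5-fold and 38.9-fold. The circadian clock had 13 of 22 at medians of 15.2 and 14.4, with the repressor BHLHE41 at 42.7-fold and 50-fold and the clock kinase CSNK1E at 42.4-fold and 32.6-fold. HECT and RING ubiquitin ligases had 23 of 32 (71.9%), with ZNRF3, RNF111 (74-fold and 66.4-fold), XIAP and ITCH (39.6-fold and 17.4-fold). Mitosis and spindle genes had 10 of 26, with CENPF, a kinetochore protein, at 28.6-fold and 22.8-fold.

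Transport genes had 50% or more of their members in both lists. Karyopherins and nucleoporins had 23 of 36 (63.9%) at medians of 5.04 and 4.73, with IPO7 at 39.6-fold and 25-fold. Kinesins, dyneins and adaptors had 18 of 28, with KIF21A at 45-fold and 70.5-fold, KIF1B at 49.8-fold and 54-fold and BICD2 at 55.9-fold and 43.6-fold. Vesicle coats had 16 of 32, with PICALM at 131-fold and 119-fold, the retromer subunit VPS35 at 52.9-fold and 68.9-fold and the COPII subunit SEC24A at 26.4-fold and 144-fold.

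Of 17 HepG2 and hepatocyte markers, 7 were in both lists, among them IGF2, FGB (22.1-fold and 17.2-fold), SERPINA1 (17-fold and 15.2-fold) and FGA (9.14-fold and 9.85-fold), while ALB, AFP, APOA1, TF and TTR were not. Of 36 hepatocyte secreted proteins, 7 were in both (19.4%), with the fibronectin gene FN1 at 18.8-fold and 28.8-fold. A peak needs more IP than input reads, so its absence gives no level of the transcript. Of 16 markers of fibroblasts, blood and endothelium, LYZ alone was in both (4.08-fold and 3.97-fold), and COL1A1, PTPRC, PECAM1 and HBB were not. Hepatocyte transcription factors and nuclear receptors had 13 of 25, with GATA6 at 23.8-fold and 14-fold and RORA at 15.2-fold and 16.7-fold. Cholesterol and fatty acid metabolism had 13 of 31, with HMGCS1, which makes HMG-CoA for sterol synthesis, at 107-fold and 71.5-fold and the desaturase SCD at 29.5-fold and 30.4-fold, while SREBF1, SREBF2 and FASN were not in both. Glycolysis had 6 of 23 (26.1%), with HK2 at 20.9-fold and 18.9-fold. The stress response list had 13 of 27, with ERO1A, the kinase EIF2AK1 (93-fold and 41.7-fold) and SEL1L (51.9-fold and 32.9-fold). The interferon list had 5 of 22 (22.7%), close to the background, and these included IFIT1 (186-fold and 87.4-fold), IFIT3 (65-fold and 103-fold), IFIT2 (27.4-fold and 41.6-fold, from peaks at different places) and IFIT5 (27.4-fold and 21.3-fold). IFIT genes are similar in sequence, and no label says how reads were shared between them.

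Genes of the large, abundant complexes seldom had a peak in both lists. The lack of a peak does not show that an mRNA was unbound. Of 78 cytosolic ribosomal protein genes, 3 were in both lists (3.85%): RPL28 (3.88-fold and 5.24-fold), RPL27A (2.97-fold and 5.55-fold) and RPL18 (1.97-fold and 1.81-fold). Of 22 replication-dependent histone genes, most of whose mRNAs lack a poly(A) tail, H2BC21 alone was in both (4.38-fold and 3.76-fold). The respiratory chain had 5 of 44 (11.4%), with NDUFS1 at 9.86-fold and 10.3-fold. The proteasome had 4 of 31 (12.9%), but PSMB2 (51.8-fold and 66.6-fold) and PSMD12 (35.4-fold and 38.6-fold) stood above the medians of all protein-coding genes of both lists (7.42 and 6.75). These 4 groups had shorter genes, with median genomic spans of 4905, 512, 12476 and 16009 bases, against 24093 bases over all protein-coding genes. By span, the share of protein-coding genes in both lists rose from 3.54% in the shortest 10% to 39.1% in the longest bin but 1. It was 31.2% in the longest 10%. The part of span in the group counts was not tested. Some groups with high shares had long genes. Median spans were 139473 bases for HECT and RING ligases, 84888 for SWI/SNF and CHD remodellers and 64238 for proteins that bind 3′ untranslated regions. Genes of such spans were in both lists at 30.5 to 39.1%, above 21.8%. Other groups are listed for their values alone, since the part of span was not tested and transcript levels are not given here. Receptor tyrosine kinases and their ligands had a median span of 63223 bases and 18.8% in both lists. The circadian clock genes had 35730 bases and 59.1%, and the known QKI targets 40939 bases and 60%. Genes in both lists had a median span of 47040 bases and genes in neither 17937 bases.

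**Figure D5:**
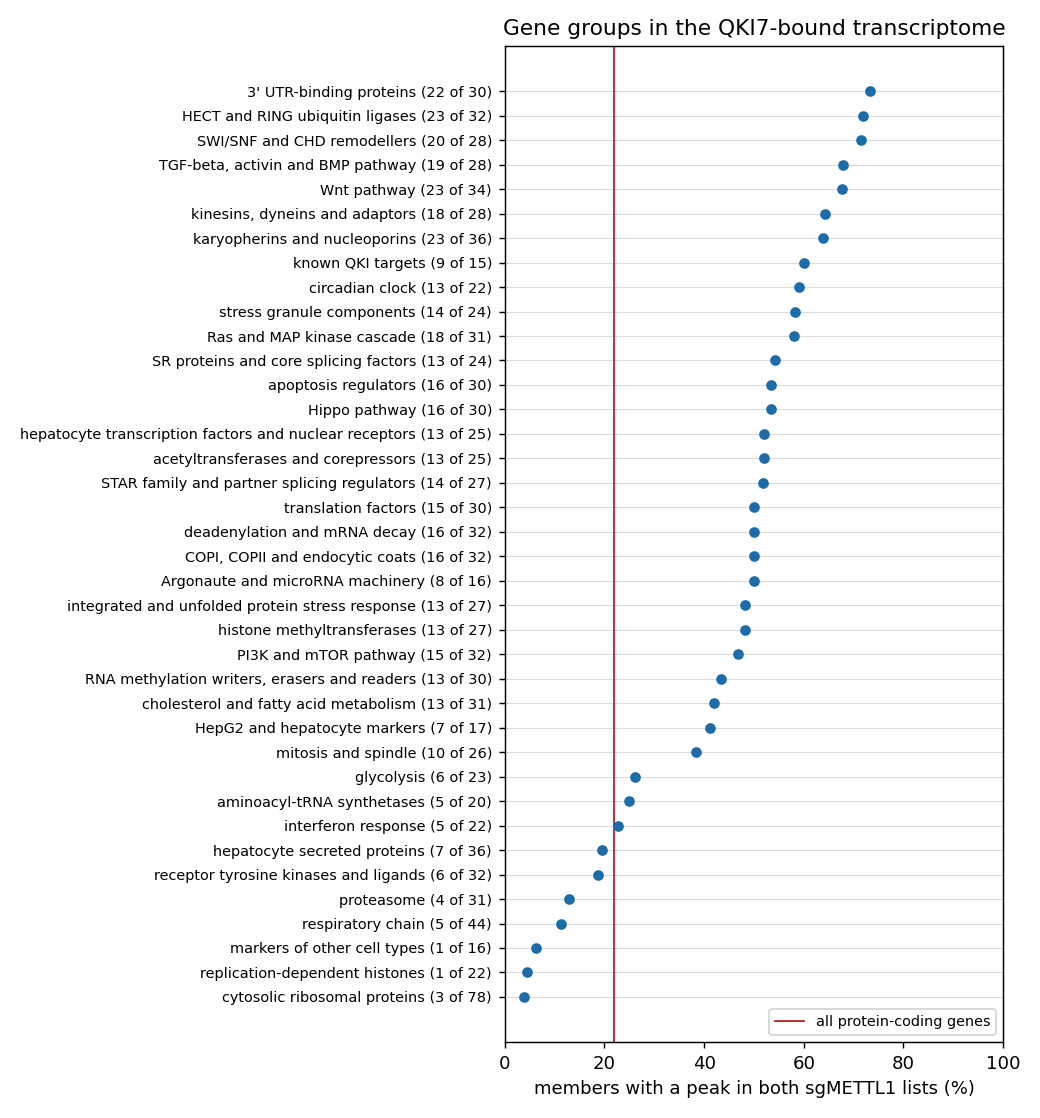
Share of the members of each gene group with a peak in both sgMETTL1 lists (%), with the number of such members and of all members beside each name; the red line marks 21.8%, the share over all protein-coding genes. Groups run from 3.85% (cytosolic ribosomal proteins) to 73.3% (proteins that bind 3′ untranslated regions).

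Some counts of genes rest on shared places. At 45 sites the lists gave 2 or more gene names, and 105 genes had sites of this kind only. These counts cover names on 1 strand. Without peaks that overlap a peak listed on the other strand, an alternative added after the data had been seen, 6659 of the 6800 sites and 4319 of the 4399 genes were counted. The extreme case was the clustered protocadherins on chromosome 5, adhesion proteins of neurons whose transcripts share their 3′ exons: 37 of them were in both lists (15 alpha and 22 gamma genes) through 4 sites. The strongest alpha site (chr5:141010819-141011477 in replicate 1) stood at 119-fold and 88.8-fold under 15 names, and the gamma site (chr5:141512501-141512979 in replicate 1) at 113-fold and 32.8-fold under 22 names. The peaks do not say which of these genes was bound.

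By the start of the symbol, 133 of 517 ZNF genes (25.7%), 33 of 74 RAB genes (44.6%) and 14 of 37 KLHL genes (37.8%) were in both lists. SLC genes had 74 of 386 (19.2%), CYP genes 6 of 56 (10.7%) and olfactory receptor genes, which are silent in most tissues, 0 of 392. By chromosome (1 to 22 and X), the share of protein-coding genes in both lists was lowest on chromosome 19 (172 of 1451, 11.9%) and highest on chromosome 5 (283 of 904, 31.3%), where the 37 protocadherins lie. Without the clustered protocadherin genes of the alpha and gamma type, chromosome 5 had 246 of 867 (28.4%), below chromosomes 13 and 18 (29.6% each). The median span was 14335 bases on chromosome 19 and 37221 bases on chromosome 5, with the protocadherins counted.

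Very few listed genes were not protein-coding. The sources used here do not give which gene models the peak calling covered, so this does not show that lncRNAs were seldom bound. In both lists, 5 were annotated as lncRNA and 4 as transcribed pseudogenes. ZNF516-DT stood at 42.7-fold and 55.5-fold, ANKRD13C-DT at 21.3-fold and 13-fold and the pseudogene GOLGA6L3P at 14-fold and 44.4-fold, each with 1 site. LOC730183 (7.11-fold and 4.01-fold) and AHSA2P (2.62-fold and 3.86-fold) also had 1 site each. LY6S-AS1, CCDC144NL and C22orf46P had a peak in each list at different places. The hairpins of 5 microRNAs described here overlapped a peak of their host mRNA in both lists. Those of MIR3658 (in UCK2, 5.04-fold and 4.57-fold), MIR10393 (in B2M, 3.44-fold and 3.35-fold) and MIR1825 (in POFUT1, 2.61-fold and 2.03-fold) lay wholly inside it, and those of MIR4709 (NPC2) and MIR1909 (REXO1) in part. Reads of a hairpin and of its host mRNA cannot be told apart here.

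Nearly all sites of the sgMETTL1 lists also had a peak with the control guide. Of the 6800 sites, 6310 (92.8%) were met by both sgNS lists and 174 (2.56%) by neither. The 174 sites had median widths of 150 and 121 bases, median folds of 3.17 and 3.05 and median −log10 p of 4.21 and 4.16. The 6310 sites had median widths of 358 and 359 bases, median folds of 5.25 and 5.02 and median −log10 p of 15 and 15.4.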

How the data were processed

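RNA immunoprecipitation sequencing of 3 x Flag-QKI7 was analysed for the sgMETTL1 cells: 2 input and 2 IP samples, grouped by their titles. Per the submitters' processing notes, STAR and the build GRCh38 were used. The peak caller, its threshold and normalisation and the read depth: not given in the sources used here. For each IP and input pair 1 peak list was deposited, so replicates were not pooled, and the fold of a peak is the authors' ratio of IP over input. The p-value of each peak was deposited by the authors, and the authors' log10 p and log10 FDR, as deposited, were handled as a score because they exceed any usual range. The p was 0 at 270 peaks of replicate 1 and 288 of replicate 2, so the logarithm served for ranking.

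Peaks on 1 strand were matched by at least 1 shared base of their exon blocks, and overlapping peaks of both lists formed sites. A site's fold, exon blocks and width are those of its strongest peak in each list. The sgNS lists served for 1 comparison of positions. Of 5671 gene names, 5405 were current RefSeq symbols, 250 were older symbols of 1 gene and 16 were left unmatched. Coordinates are 1-based. No test was made, since no groups were compared: values are descriptions of 2 lists, with exact Clopper-Pearson intervals at 95% for shares. Named are the 15 sites with the best mean rank by fold and 12 by p, the 10 genes with the most sites, the 6 sites with the most blocks, the 6 that differ most, the 6 strongest peaks of each list alone, up to 8 genes that are not protein-coding, up to 4 members of each of 38 gene lists, QKI, METTL1 and WDR4. Other features named (sites at gene starts, sites near both gene ends, CLDN22, protocadherins, hairpins, motif matches, AXL, FGFR3, PABPC1) were chosen after their values were seen. The members and lists were chosen with earlier results of these data known. Alternatives were 50% reciprocal overlap, a fold of at least 2 times the smallest of the list, equal numbers of peaks, the better 50% of each list by p, matching by position and each list alone. Some genes that these rules name are not reported here. The overlap code was tested on simulated data. Python 3.11.15, pandas 2.3.3, numpy 2.4.6, scipy 1.17.1 and matplotlib 3.10.9 were used.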

Additional observations from a re-analysis of the deposited data

How the results depend on the processing

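Of 38 alternative values for 7 results, 23 stayed near the main value (counts within 1.5 times, shares within their interval) and 15 moved. The tally includes each list alone, where counts of 1 list were set against counts that need both, which are unlike quantities. The share of replicate 1 peaks met (73.4%) was 57.4% with 50% reciprocal overlap, 71.2% with a fold of at least 2 times the smallest of the list, 76.5% with equal numbers of peaks and 82.7% in the better 50% of each list by p. The share of replicate 2 peaks met (77.9%) was 61.7, 77.0, 76.1 and 88.9% in the same order. Sites in both lists fell from 6800 to 3955 in the better 50% by p, where fewer peaks enter, and were 5682, 5717 and 6629 under the other settings. With the higher fold minimum, 77.6% of sites lay in the last 10% of the gene (76.1% in the main setting) and 89.9% had 1 exon block (89.0%). Each list alone gave 9388 to 10095 peaks, 4978 to 5087 genes, 476 to 498 of 1060 list members (451 in both), 74.4 to 74.5% in the last 10% and 90.7 to 90.9% of 1 block. Genes in both lists numbered 4399, and 2947 to 4327 under the other settings that use both lists. Leaving out peaks that overlap a peak listed on the other strand, chosen after seeing the data, moved none of the 7 results. No paired analysis was possible because each list already joins 1 IP with its own input and no groups were compared. Depth is unknown, and peaks of low −log10 p or small width recurred least.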
